A study of Mus musculus with 20 samples.

Results

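Desmosomes and simple keratins were followed through reprogramming with 10 genes of the 21938 protein-coding genes of the GENCODE M21 annotation. The desmosome genes were Dsp, Pkp1, Pkp3, Dsg2, Dsc2 and Perp, and the keratin genes were Krt7, Krt8, Krt18 and Krt19. They were chosen by name, as junction and filament genes of epithelial cells, with earlier results of these data known, so their counts beside those of all genes are descriptions. For each gene, H3K27me3 peaks within 5 kb of an annotated transcription start site (TSS) were listed in 10 libraries, and KLF4 peaks and JMJD3 positions were listed in the gene and 50 kb on each side.

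Desmosomes are spot-like junctions that hold epithelial cells together. Cadherins of the desmoglein and desmocollin families cross the membrane, plakophilins and plakoglobin bind their tails, and desmoplakin ties the plaque to keratin filaments. Keratin filaments are built from a type I and a type II partner, and simple epithelia pair KRT8 or KRT7 with KRT18 or KRT19. Fibroblasts carry vimentin filaments instead and lack desmosomes, and reprogramming to pluripotency passes through a mesenchymal-to-epithelial transition in which such genes are switched on. H3K27me3, the trimethylation of lysine 27 of histone H3, is a mark of Polycomb-repressed chromatin, and JMJD3 (also called KDM6B) is an enzyme that removes it. KLF4 is a zinc-finger transcription factor of epithelia and a reprogramming factor.

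The study profiled mouse embryonic fibroblasts (MEFs) by chromatin immunoprecipitation and sequencing (ChIP-seq), and peak lists of 14 of 20 samples were used. The MEFs were wild type (WT, labelled Jmjd3+/+, strain C57BL/6J-OG2, which carries an Oct4-GFP reporter) or Jmjd3 knockout (KO, labelled Jmjd3-/-, strain C57Bl6J), so genotype and strain label cannot be told apart. Untreated MEFs gave an H3K27me3 library for each genotype. MEFs transduced with Oct4, Sox2, Klf4 and c-Myc (OSKM) in a medium with vitamin C gave H3K27me3 libraries at day 5 and day 10, for each genotype, with either a FLAG control vector or exogenous JMJD3. KO cells with the JMJD3 vector were thus labelled as lacking the endogenous enzyme while carrying the exogenous one. KLF4 was profiled at day 5 in WT OSKM cells with FLAG or JMJD3. FLAG-tagged JMJD3 was profiled at day 5 in WT cells with OSKM or with a reduced amount of Klf4 (OSlowKM). Every group had 1 library, a mixed culture in which only part of the cells reprogram, so no difference below has a replicate check and no test was made. A peak that was not called is not proof that the mark was absent.

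The H3K27me3 lists held 3045 to 6954 peaks, each 1000 bp wide, and the shortest was that of day 10 WT cells with JMJD3. The share of all protein-coding genes with a peak near a TSS ran from 8.26% in that list to 14.7% in day 5 WT cells with FLAG. Number of reads is not part of the lists and was not used here. Peaks carry a score whose scale was not stated, so each score is given with its percentile, the share of peaks in the same list with a lower score. The lists were read against marker genes, since they hold no expression values to check the cell type. The other epithelial markers (Cdh1, Epcam, Ocln, Cldn4, Esrp1 and Grhl2) had a peak for 6 of 6 genes in WT MEFs and 5 of 6 in KO MEFs. Fibroblast markers (Vim, Thy1, Col1a1 and 7 others) had a peak for 0 to 3 of 10 genes in any list, and ubiquitous genes such as Actb and Gapdh for 0 of 6 in all 10 lists.

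H3K27me3 was called near a TSS of 5 of the 10 genes in MEFs, and in the full lists they were the same 5 in both genotypes: Dsp, Pkp1, Dsg2, Perp and Krt8. Over all protein-coding genes the share was 14.6% in WT MEFs and 10.3% in KO MEFs. The desmosome genes accounted for 4 of 6 and the keratin genes for 1 of 4. In the better-scoring part of each list, from the median score up, WT MEFs kept all 5 (10%) and KO MEFs 3, Dsp, Dsg2 and Krt8 (6.66%). The Krt8 peak of WT MEFs began 1065 bp downstream of the TSS and was not counted within 1 kb. Across the 10 lists, 8 of the genes had a peak in at least 1 list, against 22.4% of all genes (95% Wilson interval 21.9 to 23, counting error over genes only). Pkp3 and Dsc2 had none in any list, as did 17011 other genes.

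**Figure D1:**
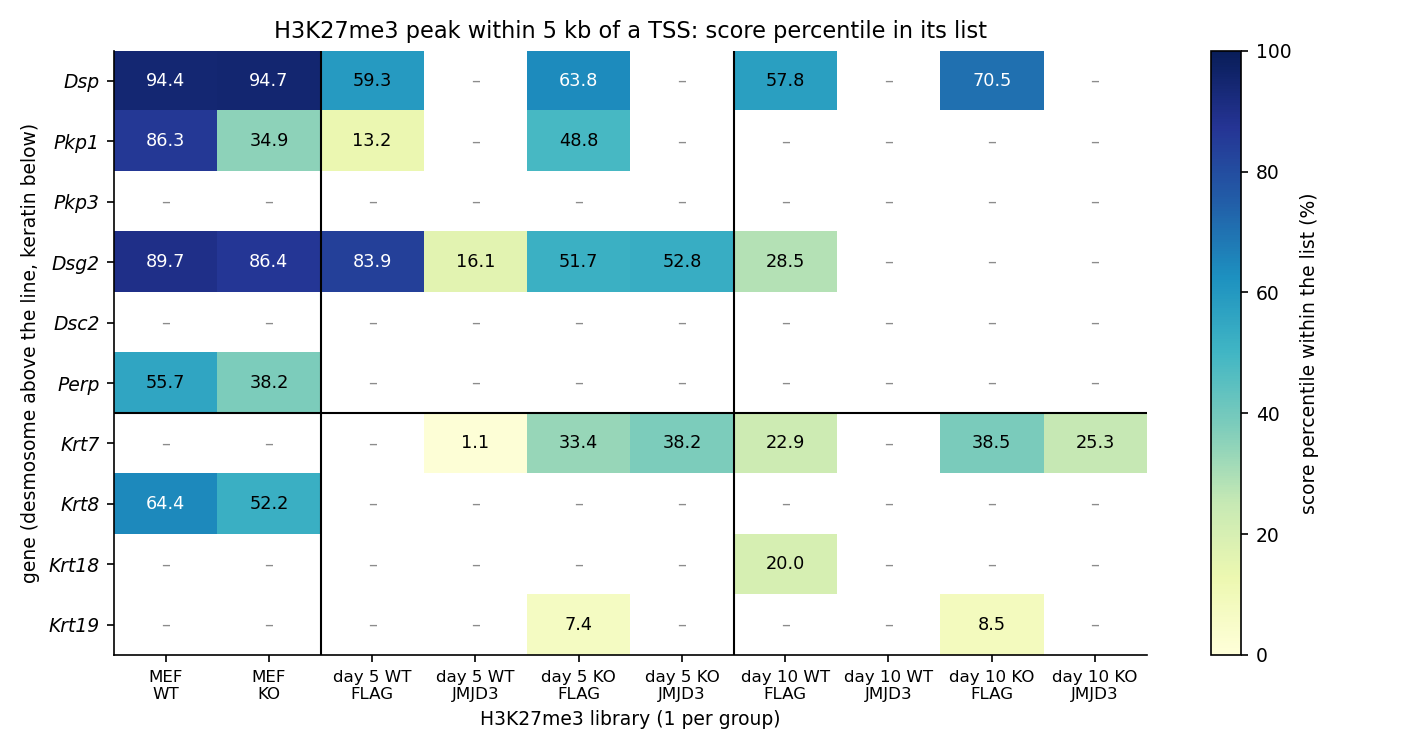
H3K27me3 peaks within 5 kb of a TSS, for each gene (y axis) in each of the 10 libraries (x axis), with the score percentile of the best peak within its own list in colour and in figures, and a dash where no peak was called. Dsp has a peak in all 6 libraries without exogenous JMJD3 and in none of the 4 with it, and Krt7 has none in MEFs.

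Dsp (chr13:38151294-38198577, plus strand, mm10) encodes desmoplakin, the plaque protein that anchors keratin filaments. Its peak scored 72.56 in WT MEFs (percentile 94.4) and 34.57 in KO MEFs (percentile 94.7). With OSKM and FLAG at day 5 it scored 16.93 in WT (percentile 59.3) and 17.27 in KO cells (percentile 63.8). At day 10 with FLAG it scored 11.94 in WT (percentile 57.8) and 15.72 in KO cells (percentile 70.5). With exogenous JMJD3 no Dsp peak was called at either day or in either genotype, and the nearest H3K27me3 peak of those 4 lists lay 148.94 to 194.54 kb away. Dsp was thus the single gene of the 10 marked in all 6 libraries without exogenous JMJD3 and in 0 of the 4 with it. Exactly this pattern over the 10 lists was shared by 16 other genes, among them Chrd, Col11a2, Marveld3, Nhlh1 and Thpo. The 6 peak centres lay between 352 and 1018 bp downstream of a TSS, in a coding exon in day 5 WT cells and in an intron in the other 5 libraries.

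Dsg2 (chr18:20558074-20604521, plus strand) encodes desmoglein 2, the desmosomal cadherin of simple epithelia. It was marked in 7 of the 10 full lists and Dsp in 6. In the better-scoring part of each list the order turned, with Dsg2 in 5 and Dsp in 6, and with all lists cut to 3045 peaks Dsg2 was in 4 and Dsp in 6. Its score was 52.48 in WT MEFs (percentile 89.7) and 24.04 in KO MEFs (percentile 86.4). At day 5 in WT cells it went from 39.43 with FLAG (percentile 83.9) to 7.41 with JMJD3 (percentile 16.1), so the peak was called in both but its rank in its list was lower with JMJD3. In day 5 KO cells the values were 12.96 with FLAG (percentile 51.7) and 14.15 with JMJD3 (percentile 52.8), next to each other in rank. At day 10 the single Dsg2 peak was in WT cells with FLAG, at 8.13 (percentile 28.5), and none was called in WT cells with JMJD3 or in KO cells with either vector. In KO cells with FLAG the peak was thus called at day 5 and not at day 10. The 7 peak centres lay between 34 bp upstream and 374 bp downstream of a TSS.

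Pkp1 (chr1:135871395-135919207, minus strand) encodes plakophilin 1, an armadillo protein of the plaque. In WT MEFs it had a peak of score 44.01 (percentile 86.3), and in KO MEFs a pair of overlapping peaks of 8.81 and 7.52 (percentiles 34.9 and 18.5). At day 5 it was marked with FLAG in WT (7.3, percentile 13.2) and KO cells (12.21, percentile 48.8) and in neither genotype with JMJD3. At day 10 no list had a Pkp1 peak, FLAG included. The difference between vectors at Pkp1 could therefore be seen at day 5 alone.

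In the full lists Perp and Krt8 had the same pattern, marked in MEFs and not afterwards. Perp (chr10:18845020-18857073, plus strand) encodes a tetraspan membrane protein of desmosomes, and Krt8 (chr15:101996698-102004482, minus strand) the type II keratin of simple epithelia. Perp scored 13.64 in WT MEFs (percentile 55.7) and 9.14 in KO MEFs (percentile 38.2), and Krt8 scored 17.51 in WT MEFs (percentile 64.4) and 11.06 in KO MEFs (percentile 52.2). Neither gene had a peak in any of the 8 OSKM libraries, with FLAG or with JMJD3. Of the genes with a peak in both MEF genotypes, 6.3% had none in either day 5 FLAG library, and of the 5 named here these were 2. The pattern of Perp and Krt8 was shared by 89 other genes.

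Set against MEFs of the same genotype, the 5 genes kept fewer peaks with OSKM and FLAG at day 10 than at day 5. In WT cells, 2 of 5 had none at day 5 (22.2% of all genes marked in WT MEFs) and 3 of 5 had none at day 10 (36.6%), with Pkp1 as the addition. In KO cells, 2 of 5 had none at day 5 (15.2%) and 4 of 5 had none at day 10 (23.5%), Dsp being the exception. With JMJD3, 4 of the 5 had no peak in any of the 4 libraries, against 9.94% of genes marked in both MEF genotypes, and the exception was Dsg2. Of these 4, Perp and Krt8 had no peak with FLAG either, and Pkp1 had none with FLAG at day 10.

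Keratin genes other than Krt8 had no peak in MEFs. Krt7 (chr15:101411043-101430313, plus strand), a type II keratin of glandular epithelia, had a peak in 6 of the 8 OSKM libraries. In WT cells it scored 6.66 at day 5 with JMJD3 (percentile 1.1), among the weakest peaks of that list, and 7.76 at day 10 with FLAG (percentile 22.9). In KO cells it scored 9.34 with FLAG and 10.29 with JMJD3 at day 5 (percentiles 33.4 and 38.2). At day 10 the KO scores were 9.12 with FLAG and 8.03 with JMJD3 (percentiles 38.5 and 25.3). Krt7 was thus marked in all 4 OSKM libraries of KO cells, with either vector, and in 2 of 4 of WT cells, with its centre 255 to 833 bp downstream of the TSS. Krt19 (chr11:100140810-100148665, minus strand), the smallest type I keratin, was marked with FLAG in KO cells at day 5 (6.95, percentile 7.4) and day 10 (6.92, percentile 8.5). Krt18 (chr15:102028180-102032027, plus strand), the type I partner of KRT8, had a single peak, in day 10 WT cells with FLAG, centred at -3200 bp, upstream of its start (7.56, percentile 20). These 9 peaks of Krt7, Krt19 and Krt18, all from OSKM libraries, had percentiles from 1.1 to 38.5. The desmosome peaks of OSKM libraries ran from 13.2 to 83.9, so the ranges overlapped, and the Krt8 peaks, both from MEFs, were higher than any of the 9. None of the 9 was left in the better-scoring part of the lists or in lists cut to 3045 peaks, so the marking of Krt7 in more KO than WT libraries was seen in the full lists alone. The difference between the families was not tested.

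Pkp3 and Dsc2, unlike Dsp, Pkp1, Dsg2 and Perp, had no peak within 5 kb of a TSS in any list. The nearest peak to Pkp3 (chr7:141078218-141090510, plus strand), which encodes plakophilin 3, lay 6.28 to 7.08 kb from its start in 6 lists, just past the 5 kb limit, and 154.74 to 155.12 kb away in the other 4. Dsc2 (chr18:20030633-20059554, minus strand) encodes desmocollin 2 and lies in the cluster of desmosomal cadherin genes on chromosome 18 together with Dsg2. The nearest peak to Dsc2 was 498.16 to 498.57 kb away in the 7 lists in which Dsg2 was marked. Among 13 further desmosome genes (Jup, Pkp2, Pkp4, Dsg1a, Dsg1b, Dsg1c, Dsg3, Dsg4, Dsc1, Dsc3, Evpl, Ppl and Cdsn), 1 was marked. That was Ppl, which encodes the plaque protein periplakin and had a peak in all 10 lists, from percentile 0.5 in day 5 WT cells with JMJD3 to 91.8 in WT MEFs. Of 13 further keratin genes 0 or 1 was marked in a list, Krt4 in WT MEFs and Krt1 in day 5 WT cells with FLAG and day 5 KO cells with JMJD3.

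The comparison of FLAG with JMJD3 asked which genes were no longer marked when the demethylase was supplied. At day 5 in WT cells 3 of the 10 genes were marked with FLAG (14.7% of all genes) and 2 with JMJD3 (11%). In day 5 KO cells 5 were marked with FLAG (13.7%) and 2 with JMJD3 (13%). At day 10 in WT cells 4 were marked with FLAG (12.1%) and 0 with JMJD3 (8.26%). In day 10 KO cells 3 were marked with FLAG (12.8%) and 1 with JMJD3 (11.7%). Counted as losses, 2 of 3 marked genes had no peak with JMJD3 in day 5 WT cells (Dsp and Pkp1), where 31.8% of all marked genes were lost. In day 5 KO cells it was 3 of 5 (Dsp, Pkp1 and Krt19) against 20.5%, in day 10 WT cells 4 of 4 (Dsp, Dsg2, Krt7 and Krt18) against 41.3%, and in day 10 KO cells 2 of 3 (Dsp and Krt19) against 25.1%. The genes gained were 1 in day 5 WT cells, Krt7, where 1.12% of unmarked genes gained a peak, and 0 in day 5 KO, day 10 WT and day 10 KO cells, where 2.48%, 1.3% and 2.42% did. Desmosome genes lost were 2, 2, 2 and 1 in the order given, and keratin genes 0, 1, 2 and 1. The lists compared differ in length (5131 and 3045 peaks in the day 10 WT pair), so losses were also counted with all lists cut to their 3045 best peaks. At day 10, 1 gene was then lost in WT (31.2% of all marked genes) and 1 in KO cells (23.9%), Dsp in both. At day 5, 2 genes were lost in WT (Dsp and Dsg2, 25.7%) and 3 in KO cells (Dsp, Pkp1 and Dsg2, 22.3%). Dsg2, kept at day 5 in the full lists, was thus lost in both genotypes in the shortened ones, and Pkp1 in WT cells was no longer marked with FLAG. Dsp was lost in all 4 pairs at either length. The part of list length in the losses was not tested further. Of the other epithelial markers, 1 of 6 marked genes was lost in day 5 WT cells, 0 of 6 in day 5 KO, 1 of 4 in day 10 WT and 1 of 5 in day 10 KO cells.

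Weak peaks were lost more often in general, and the score of each FLAG peak was read beside that. In day 5 WT cells 77.3% of all genes whose best FLAG peak lay below percentile 25 were lost, and 5.7% of those above percentile 75. Pkp1 (percentile 13.2) was in the former group. In day 5 KO cells the lost Pkp1 peak (percentile 48.8) lay between percentiles 25 and 50, where 38.7% were lost. Dsp lay between percentiles 50 and 75 in each of the 4 pairs, where the lost shares were 30.6% (27.8 to 33.6) in day 5 WT, 14.8% (12.6 to 17.3) in day 5 KO, 43% (39.5 to 46.6) in day 10 WT and 22.2% (19.4 to 25.1) in day 10 KO cells. Krt19 was below percentile 25 in both KO pairs, where 58.7% and 59.8% of genes were lost. The losses of Krt18 and Krt7 in day 10 WT cells also came from below percentile 25, with 72.4% lost, and that of Dsg2 (percentile 28.5) from between 25 and 50, with 64.4% lost. Among the genes with a day 5 FLAG peak in both genotypes, 11.4% were lost in both, and of Dsp, Pkp1 and Dsg2 these were Dsp and Pkp1. The pairs share no library, but each rests on a single JMJD3 list.

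**Figure D2:**
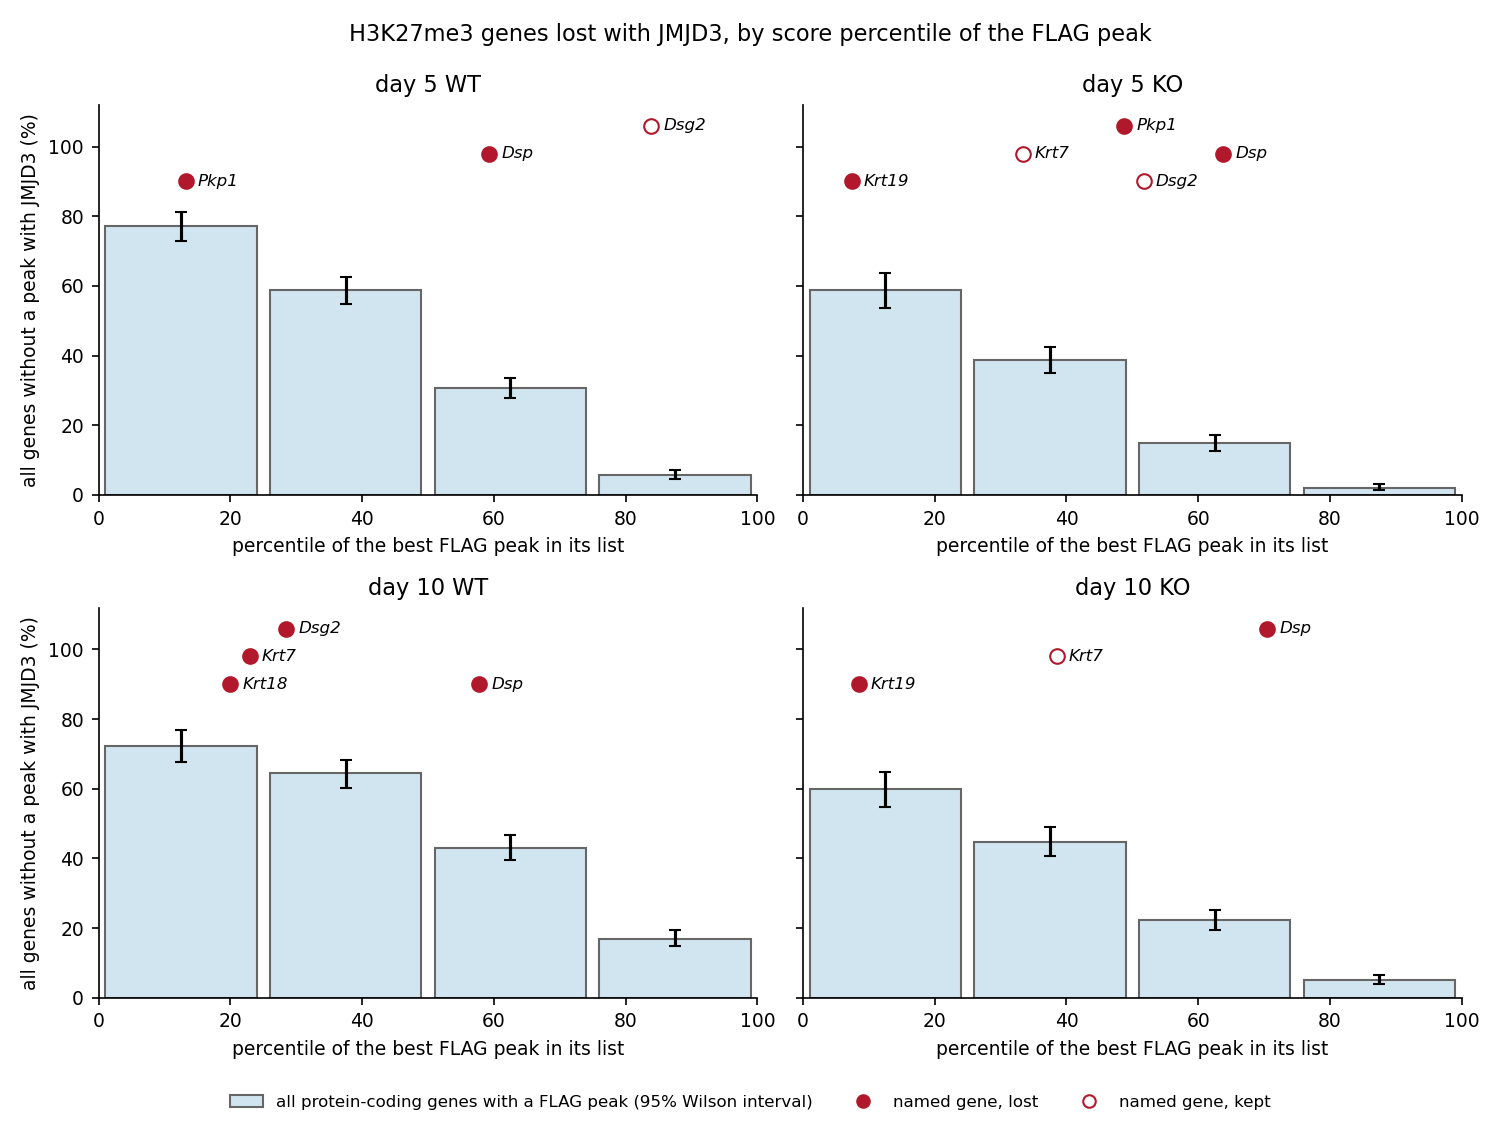
Share of all protein-coding genes with a FLAG H3K27me3 peak that have none with JMJD3 (bars, %, with 95% Wilson intervals) by score percentile of the best FLAG peak in 4 bins of 25, for the 4 pairs of libraries. Circles mark the named genes at the percentile of their own FLAG peak, at a height without meaning, filled where lost and open where kept, and Dsp is filled in all 4 panels at percentiles of 57.8 to 70.5.

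The 5 genes marked in MEFs were then compared with KLF4 binding at day 5. KLF4 peaks of FLAG cells overlapped the WT MEF H3K27me3 peak of 4 of the 5 genes: Pkp1, Dsg2, Perp and Krt8. Over all genes with a WT MEF peak near a TSS the share was 3.46% (2.88 to 4.15), and 7.11% for KLF4 peaks of JMJD3 cells. This comparison was added after the values had been seen. The midpoints of the KLF4 peaks sat within 36 bp of a TSS at Pkp1, Dsg2 and Perp and 1238 bp downstream, in an intron, at Krt8, and each was called again with JMJD3. In FLAG cells 4 of the 10 genes had a KLF4 peak within 5 kb of a TSS, against 28% of all genes. With JMJD3 it was 5, Dsp being the addition (37.1%). A JMJD3 position lay within 5 kb of a TSS at 3 genes with OSKM, Dsp, Perp and Krt8 (21%), and at 0 with low KLF4 (3.66%). KLF4 at the start went with different histories of the mark. At Perp and Krt8 the peak was gone by day 5 with FLAG, at Pkp1 by day 10, and at Dsg2 the mark and the KLF4 peak were called at the same place at day 5. Of the WT MEF genes with such an overlap, 18.9% had no peak in day 5 WT cells with FLAG, and 22.3% of those without it. The day 5 WT FLAG peak itself overlapped a KLF4 peak at 2 of 3 marked genes, Pkp1 and Dsg2, against 3.68% of all marked genes. Of genes with that overlap, 40.3% (32 to 49.3) were lost with JMJD3, and 31.5% (29.9 to 33.1) of the others. H3K27me3 and KLF4 come from separate libraries, of untreated MEFs or of mixed OSKM cultures, so an overlap does not show that a single cell carried both.

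Dsp was the exception among the 5. It had no KLF4 peak within 10 kb of its start in FLAG cells, the closest being 10530 bp upstream. It carried a pair of JMJD3 positions inside its H3K27me3 peaks, 144 bp downstream of a TSS in the 5' untranslated region and 953 bp downstream in an intron. The latter lay within the peak of 5 libraries, WT and KO MEFs included. Both positions came from cells with exogenous JMJD3, and the Dsp peaks from libraries without it. The mark and the JMJD3 position were thus not called in the same condition at Dsp. JMJD3 positions fell inside the WT MEF peak of 2 of the 5 genes, Dsp and Perp, against 1.53% of all genes with such a peak. At Krt8 a position 954 bp downstream of the TSS fell inside the KO MEF peak and outside the WT MEF peak. At Perp the position was in a coding exon 259 bp from the TSS and 273 bp from the KLF4 peak of FLAG cells. With JMJD3, KLF4 peaks not called in FLAG cells appeared in Dsp introns at 1622 and 6535 bp, and the nearest JMJD3 positions lay 669 and 1341 bp from them.

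**Figure D3:**
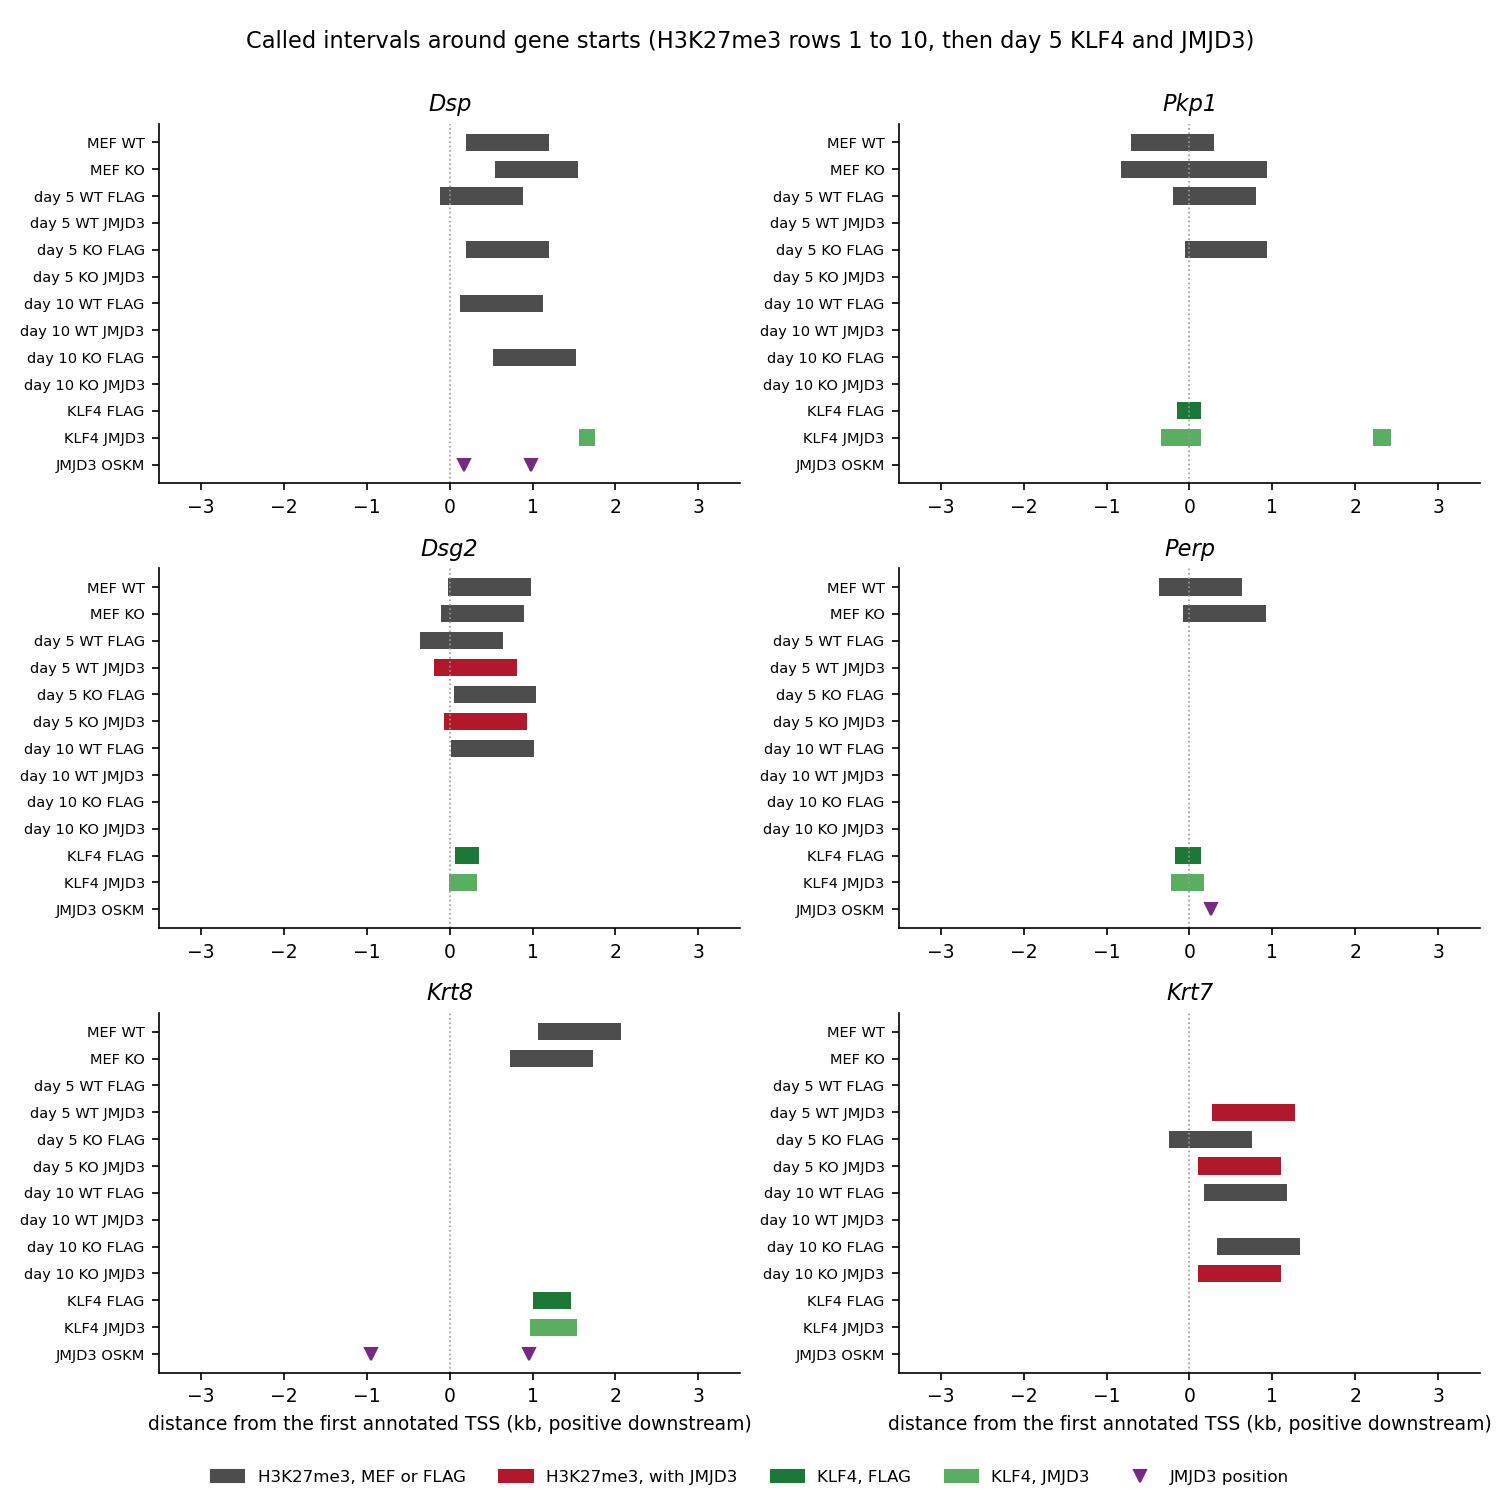
Called intervals within 3.5 kb of the first annotated TSS of Dsp, Pkp1, Dsg2, Perp, Krt8 and Krt7 (x axis, kb, positive downstream), with a row for each of the 10 H3K27me3 libraries (dark grey without and red with exogenous JMJD3), the KLF4 libraries (green) and the JMJD3 positions of OSKM cells (triangles). KLF4 intervals lie under the H3K27me3 peaks of Pkp1, Dsg2, Perp and Krt8 and not under those of Dsp. JMJD3 positions lie under the peaks of Dsp, Perp and Krt8, at Krt8 in KO MEFs alone, and Krt7 has neither.

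Sequences at these starts show what the intervals cover. Each run of 200 bases is from GRCm38.p6, on the strand of the gene and 5' to 3', and capitals mark the KLF strings searched for, GGGTGTG or GGGCGTG and their reverse complements CACACCC and CACGCCC. The first pair are the Dsp intron around the JMJD3 position and around the KLF4 peak called only with JMJD3, neither of which holds such a string. The others are the bases just before the start of Perp and the Krt8 intron, both under KLF4 peaks of JMJD3 cells, with 1 string each. The KLF4 window at the Dsg2 start, not shown, held 0 strings with FLAG and with JMJD3. That at the Pkp1 start, not shown either, held 0 with FLAG and 1 with JMJD3.
Dsp intron at the JMJD3 position (chr13:38152181-38152380, plus strand): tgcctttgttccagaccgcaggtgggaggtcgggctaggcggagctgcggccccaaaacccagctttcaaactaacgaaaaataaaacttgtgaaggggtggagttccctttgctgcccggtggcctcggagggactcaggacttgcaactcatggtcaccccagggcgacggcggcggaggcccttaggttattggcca
Dsp intron at the KLF4 peak of JMJD3 cells (chr13:38152850-38153049, plus strand): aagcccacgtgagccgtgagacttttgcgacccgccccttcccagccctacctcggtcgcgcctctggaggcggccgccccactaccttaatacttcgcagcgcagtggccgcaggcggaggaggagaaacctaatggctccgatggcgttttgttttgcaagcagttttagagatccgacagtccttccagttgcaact
Perp before its start (chr10:18844820-18845019, plus strand): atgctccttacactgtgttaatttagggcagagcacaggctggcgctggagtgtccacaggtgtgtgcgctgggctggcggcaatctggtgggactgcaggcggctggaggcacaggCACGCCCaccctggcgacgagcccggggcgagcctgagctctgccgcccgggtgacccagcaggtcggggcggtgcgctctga
Krt8 intron at the KLF4 peak (chr15:102003128-102003327, minus strand): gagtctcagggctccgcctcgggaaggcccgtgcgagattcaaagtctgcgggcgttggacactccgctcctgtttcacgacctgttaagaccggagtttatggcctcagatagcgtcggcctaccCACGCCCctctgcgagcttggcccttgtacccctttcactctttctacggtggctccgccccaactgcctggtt

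CpG content was taken from 1 kb centred on the first TSS. Dsp had the highest ratio of observed over expected CpG, 0.88, above 88.5% of all genes. Perp (0.7), Pkp1 (0.69) and Dsg2 (0.67) came next, above 63.6%, 63.3% and 60.6% of all genes. The 4 desmosome genes marked in MEFs were thus those with the most CpG among the 10, and Krt8, marked in MEFs as well, was low at 0.38. The genes without a MEF peak ran from 0.32 at Pkp3 to 0.57 at Krt7. The median was 0.64 over the 3205 genes with a WT MEF peak and 0.55 over the 18733 without, while the upper quartiles were 0.77 and 0.78.

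**Figure D4:**
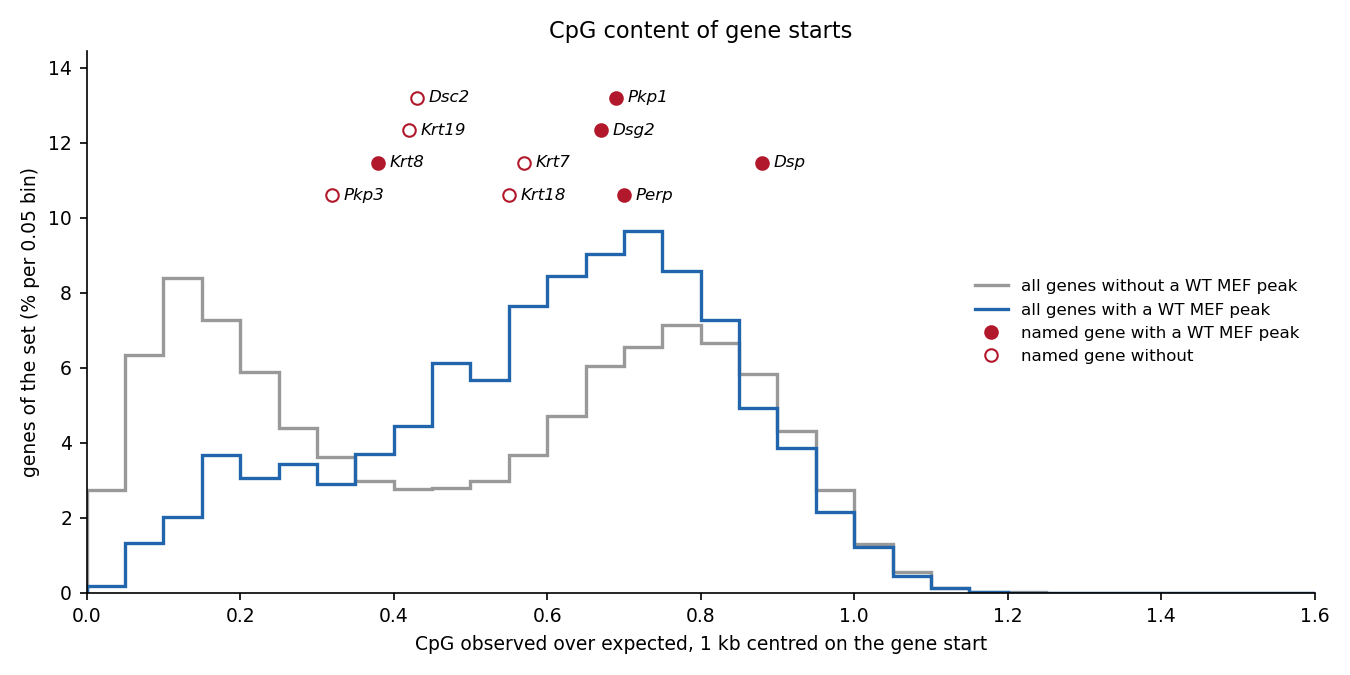
CpG observed over expected in 1 kb centred on the first annotated TSS (x axis) as the percentage of genes per bin of 0.05 (y axis), for all genes with (blue) and without (grey) an H3K27me3 peak in WT MEFs. Circles give the named genes at a height without meaning, filled for those with a WT MEF peak, and 4 of these 5 lie at 0.67 or above.

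Binding was then listed over the gene and 50 kb on each side. In FLAG cells, KLF4 peaks lay in the windows of 7 of the 10 genes (59.5% of all genes) and with JMJD3 in 8 (67.2%), with Krt19 as the addition. JMJD3 positions lay in the windows of 8 genes with OSKM (55.6%) and of 2 with low KLF4 (14.1%). Windows are longer for long genes. Pkp1 had the most KLF4 peaks, 5 in FLAG and 7 in JMJD3 cells, more than 95.6% and 97.4% of all genes. Dsp and Pkp3 went from 3 to 5 each, Krt8 from 4 to 5, and Krt18 (3), Perp (2) and Dsg2 (1) had the same number with both vectors. Krt7 had no KLF4 peak and no JMJD3 position of any list in its window, and Dsc2 had a single JMJD3 position, in its 3' untranslated region, and no KLF4 peak. JMJD3 positions with OSKM numbered 6 at Krt8, more than in 98.4% of all genes, 4 at Dsp, 3 at Pkp1 and Krt18, 2 at Dsg2 and Perp and 1 at Pkp3.

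Some windows share sites or reach other genes. Krt8 and Krt18 lie 23.7 kb apart, and the KLF4 peak of the Krt8 intron counts for both. Of 27 distinct KLF4 peaks of JMJD3 cells, 16 had a named gene as the nearest, and of 20 distinct JMJD3 positions 13 did. The KLF4 peaks near Snrnp48 and Eif4b, for example, lie at most 98 bp from those genes' own starts. The JMJD3 position of the Pkp3 window lay 29 bp from a TSS of B4galnt4.

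KLF4 peaks were then compared between vectors. All 19 distinct KLF4 peaks of FLAG cells in the windows had a peak of JMJD3 cells within 400 bp, against 84.8% of all KLF4 peaks. Of 27 peaks with JMJD3, 19 had a FLAG partner and 8 had none, and 62.6% of all such peaks had a partner. The 8 were 2 each at Dsp, Pkp1 and Pkp3 and 1 each at Krt8 and Krt19. Of the 19 shared peaks 14 were wider with JMJD3, with medians of 303 bp with FLAG and 392 bp with JMJD3, and over all shared peaks 71.2% were wider, with medians of 291 and 341 bp. The KLF4 peak of the Krt8 intron widened from 459 to 575 bp and that at the Pkp1 start from 285 to 483 bp.

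Sites with both factors were counted last. Of 27 KLF4 peaks with JMJD3, 10 had a JMJD3 position within 400 bp (32.5% of all), and of 20 JMJD3 positions 10 had a KLF4 peak (32.7%). The 10 sites were at Dsp (1), Pkp1 (3), Perp (2) and Krt8 (4). At Pkp1 they lay 14.7 kb upstream, in an intron 27 kb downstream and beyond the gene, and at Perp at the start and 26 kb downstream. Of the 19 KLF4 peaks of FLAG cells, 9 had a JMJD3 position that close (34.7%). The low-KLF4 library had 2 positions in the windows, 1 downstream of Krt8 and 1 downstream of Krt18, and both were nearer to other genes, Krt78 and Eif4b. Each lay within 400 bp of a position with OSKM, and none of the desmosome windows held one. Over all positions with OSKM, 12.9% had a low-KLF4 position within 400 bp, and 2 of the 20 here did. The low-KLF4 list was shorter, 2284 against 14067 positions.

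**Figure D5:**
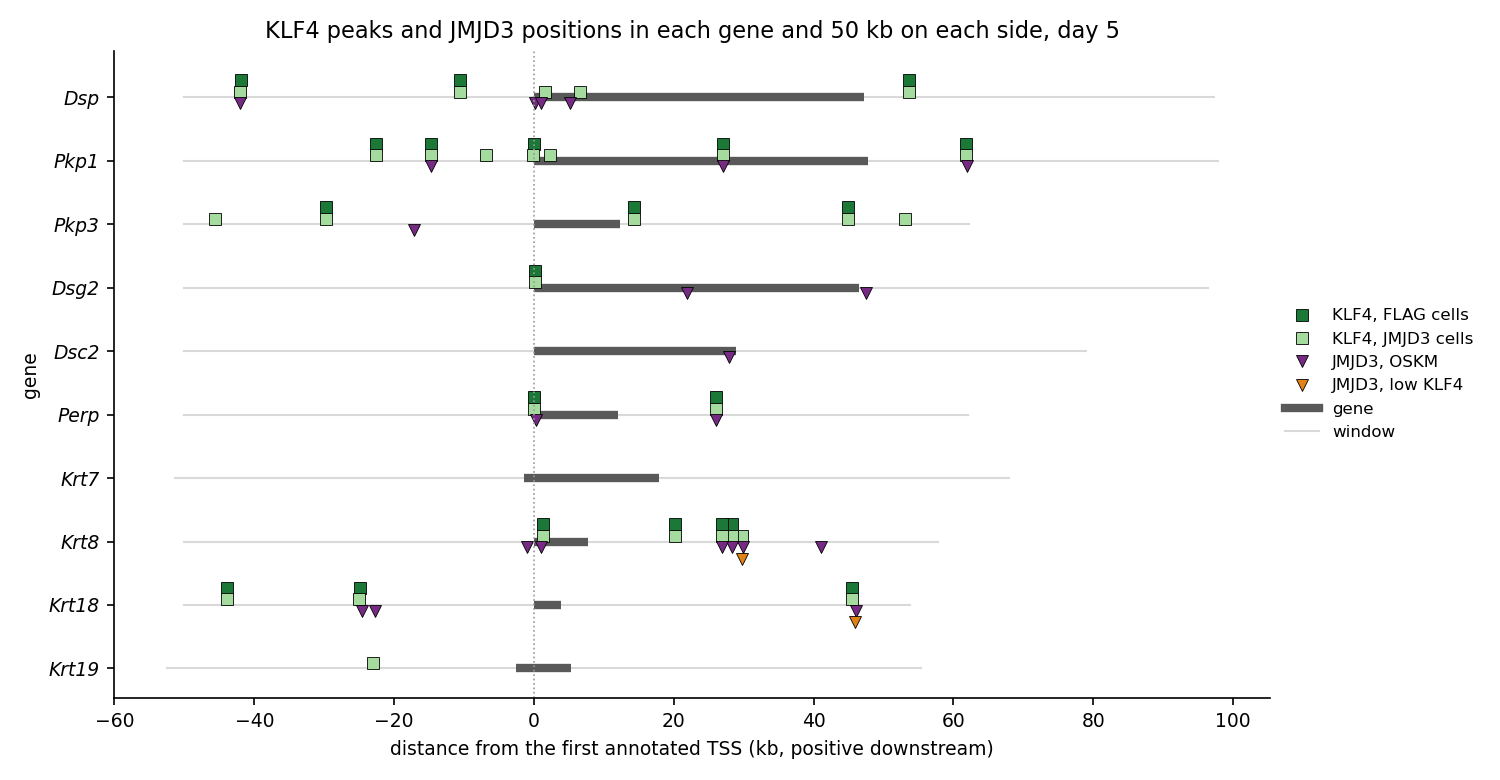
KLF4 peaks of FLAG and JMJD3 cells (squares) and JMJD3 positions with OSKM and with low KLF4 (triangles) at day 5, by distance from the first annotated TSS (x axis, kb) for each gene (y axis), with the gene as a thick and the window as a thin line. Pkp1 holds the most KLF4 peaks (5 and 7), Krt8 the most JMJD3 positions (6), Krt7 holds none, and the low-KLF4 positions are downstream of Krt8 and Krt18.

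KLF strings were found in 11 of 19 windows of 200 bp at KLF4 peaks of FLAG cells (42.4% of all windows of that list) and in 16 of 27 with JMJD3 (39.9%). At JMJD3 positions with OSKM they were in 8 of 20 windows (16.1%). Split by KLF4, the string was in 7 of 10 JMJD3 windows with a KLF4 peak within 400 bp (27.9% of all such windows) and in 1 of 10 without (10.4%). The SOX string CATTGT was in 4 of 20 JMJD3 windows (22.9%), the AP-1 string TGANTCA in 5 (11.4%) and the OCT string ATGCAAAT in 0 (3.81%). At Dsp, the 3 JMJD3 positions at 144, 953 and 5194 bp downstream of a TSS held none of these strings, and the position at -42.02 kb, beside a KLF4 peak, held a KLF and a SOX string. A match is a description of the letters, not a binding site. The sites with both factors upstream of Dsp and Pkp1 and downstream of Perp are given below, in the same form as above.
Dsp, upstream (chr13:38109128-38109327, plus strand): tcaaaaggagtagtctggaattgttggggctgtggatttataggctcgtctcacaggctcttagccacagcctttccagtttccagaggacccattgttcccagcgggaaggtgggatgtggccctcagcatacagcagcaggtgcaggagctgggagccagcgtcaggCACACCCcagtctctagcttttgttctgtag
Pkp1, upstream (chr1:135933830-135934029, minus strand): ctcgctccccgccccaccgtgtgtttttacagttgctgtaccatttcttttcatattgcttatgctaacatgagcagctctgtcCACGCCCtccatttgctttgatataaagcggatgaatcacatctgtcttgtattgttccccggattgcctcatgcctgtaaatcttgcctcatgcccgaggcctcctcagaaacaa
Perp, downstream (chr10:18871036-18871235, plus strand): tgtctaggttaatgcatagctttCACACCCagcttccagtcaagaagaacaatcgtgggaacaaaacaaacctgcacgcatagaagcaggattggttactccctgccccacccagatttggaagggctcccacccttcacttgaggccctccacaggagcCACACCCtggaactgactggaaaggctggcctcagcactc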

How the data were processed

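Peak lists of 14 ChIP-seq libraries were used. Per the labels and methods, mouse reads were mapped by the authors to mm10 with Bowtie2 (2.2.0 in the submitters' processing notes). H3K27me3 peaks came from DFilter, KLF4 and JMJD3 peaks from MACS2, each library on its own. The deposited H3K27me3 files give 1000 bp intervals with a caller score of unstated scale, used only as a percentile within its list. KLF4 intervals and 1 bp JMJD3 positions have no score. A Drosophila spike-in was used for H3K27me3, with no statement on its part in peak calling. Read depth is not part of the lists, and a deeper library can give more peaks, so presence or absence can move with depth. Each group had 1 library, and nothing was tested.

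TSSs were those of basic GENCODE M21 transcripts and sequence was GRCm38.p6, the build of mm10. A peak counted when any base lay within 5 kb of a TSS, and sites were paired within 400 bp between midpoints. The study used that distance between summits. Shares are over all 21938 protein-coding genes or all sites of a list. All 10 genes are named, and other genes were named where a listed group had a peak or where 20 or fewer genes shared a pattern. The members and lists were chosen with earlier results of these data known. Overlap code was tested on simulated lists against bedtools 2.31.1. Python 3.11.15, numpy 2.4.6, pandas 2.3.3 and scipy 1.17.1 were used. The 6 samples without a list, 4 inputs and 2 H3K27ac, were not used here.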

Additional observations from a re-analysis of the deposited data

Results flagged for a closer look

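Krt7 moved in opposite directions in WT cells at the 2 times. The change in called peaks from FLAG to JMJD3 was 1 at day 5, where a peak was gained, and a loss at day 10. The count of keratin genes marked moved likewise. It changed by 1 from FLAG to JMJD3 in day 5 WT cells, by -1 in day 5 KO cells, by -2 in day 10 WT cells and by -1 in day 10 KO cells. These differences between genotypes and days were not tested, since each rests on 1 library a group. The gain of Krt7 rested on a peak at percentile 1.1 of its list.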

How the results depend on the processing

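Each group has 1 library and the labels give no replicate numbers, so no fit with a replicate block was made and no library was left out within a group. The 4 pairs of FLAG and JMJD3 libraries were compared by counts, and a vector effect blocked by pair was not tested. Of 96 recomputed counts, 73 stayed within 1.5 times the reported count and 23 did not. Distances to a TSS of 1 or 10 kb, the 5' end of the gene alone, and the TSSs of all GENCODE transcripts (chosen after seeing the data) moved no H3K27me3 count that far. Pkp3, marked in 0 lists at 5 kb, was however marked in 6 lists at 10 kb and in 2 with all GENCODE TSSs. It was then also lost with JMJD3, in day 5 WT and day 10 KO cells at 10 kb and in day 5 KO cells with all GENCODE TSSs. Keeping the better-scoring part of each list did, which by construction removes weak peaks. With peaks at or above the median score, genes marked were 3 in KO MEFs (6.66% of all genes), 0 in day 5 WT with JMJD3 (7.45%), 2 in day 5 KO with FLAG (9.17%) and 1 with JMJD3 (9.31%), 1 at day 10 with FLAG in WT (8.02%) and 1 in KO (8.59%), and 0 in day 10 KO with JMJD3 (7.84%). Dsp alone was then lost in day 5 KO (1 gene, 18.7% of all marked genes), day 10 WT (1, 47.4%) and day 10 KO cells (1, 27.4%). In day 5 WT cells the 2 lost were Dsp and Dsg2 (32.9%) in place of Dsp and Pkp1. With all lists cut to the 3045 best peaks, genes marked were 0 in day 5 WT with JMJD3 (8.41%), 3 in day 5 KO with FLAG (9.74%) and 0 with JMJD3 (8.92%), 1 in day 10 WT (9.03%) and 1 in day 10 KO with FLAG (9.33%), and 0 in day 10 KO with JMJD3 (9.08%). The genes lost at day 10 were 1 in WT (31.2%) and 1 in KO cells (23.9%), again Dsp, and at day 5 Dsg2 turned from kept to lost in both genotypes. Within 5 kb of a TSS, KLF4 was at 4 genes with FLAG and 5 with JMJD3, JMJD3 at 3 with OSKM, and JMJD3 with low KLF4 at 0, which was also 0 with flanks of 10 kb. Pairing within 200 bp or 1 kb and KLF4 peaks at or above the median width stayed within 1.5 times.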

Other observations

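Genes with exactly the same presence or absence of a peak over the 10 H3K27me3 lists were few for some of the genes. Dsg2 shared its pattern with 12 others, among them Hook1, Myb and Rfx2. Krt7 shared it with 2, Gcm2 and Sycp2l, and Krt19 with 12. Pkp1 shared it with 27 and Krt18 with 101. A shared pattern says nothing of shared control. Genes marked in all 10 lists, as Ppl was, numbered 1026, or 4.68% of all protein-coding genes.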
